A study of Mus musculus with 44 samples.

Results

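The 10 germline genes described here are *Dazl*, *Ddx4*, *Mael*, *Sycp1*, *Sycp3*, *Tex101*, *Asz1*, *Taf7l*, *Syce1* and *Mov10l1*. They were chosen by name from the 35269 genes of the expression table, as germ cell genes with promoters that are sensitive to DNA methylation. Expression was measured by RNA-seq of 44 single mouse embryos at the two-cell stage, collected from 6 litters of natural matings on a C57Bl/6 background. WT embryos (n = 14) were Dppa2/4+/+ and came from control females mated with WT males. The other embryos came from Dppa2/4m- females, in which Zp3-Cre had deleted floxed *Dppa2* and *Dppa4* in the growing oocyte, so all of them lacked the maternal copy. HET1 embryos (n = 15, Dppa2/4+/-) were sired by WT males. HET2 embryos (n = 5, Dppa2/4+/-) and HOM embryos (n = 10, Dppa2/4-/-) were littermates sired by Dppa2/4+/- males, and the study told them apart by their *Dppa2* and *Dppa4* transcripts. Each cross gave a litter from mating 1 and a litter from mating 2, with 10 and 4 WT, 7 and 8 HET1, 4 and 1 HET2 and 3 and 7 HOM embryos. Only HET2 and HOM embryos share litters, so comparisons with WT embryos also hold the differences between litters, of which each cross has 2.

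In most tissues the promoters of such germline genes carry methylated CG dinucleotides, and the genes stay silent. Silencing depends on the DNA methyltransferases and, before methylation is laid down, on a Polycomb complex that contains Pcgf6, Mga and E2f6. Dppa2 and Dppa4 are a pair of small DNA-binding chromatin proteins which, in embryonic stem cells, keep a set of CG-rich promoters free of methylation. A two-cell embryo still holds mRNA made in the oocyte, itself a germ cell, and total mRNA does not separate this from new transcripts. DNA methylation was not measured in the data used here.

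The promoter windows of 5 of these genes are shown, since they cover the range from the most to the fewest CG dinucleotides and from abundant to hardly detected transcripts. The windows run from 250 bases before to 50 bases after the RefSeq start (GRCm38.p6), and capitals mark CG dinucleotides. *Ddx4* (chr13:112652261-112652560, minus strand) has the highest number of CG dinucleotides, 38, and *Dazl* (chr17:50293571-50293870, minus strand) has 28. *Sycp3* (chr10:88459337-88459636, plus strand) has 15, *Taf7l* (chrX:134476441-134476740, minus strand) has 17 and *Syce1* (chr7:140787805-140788104, minus strand) has 14.
Ddx4: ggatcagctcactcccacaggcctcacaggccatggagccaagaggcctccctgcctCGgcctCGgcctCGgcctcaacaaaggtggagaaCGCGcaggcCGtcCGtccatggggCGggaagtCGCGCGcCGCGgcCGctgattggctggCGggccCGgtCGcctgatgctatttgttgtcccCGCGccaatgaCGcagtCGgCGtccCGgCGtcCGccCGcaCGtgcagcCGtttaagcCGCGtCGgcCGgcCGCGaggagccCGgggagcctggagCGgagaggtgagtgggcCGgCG
Dazl: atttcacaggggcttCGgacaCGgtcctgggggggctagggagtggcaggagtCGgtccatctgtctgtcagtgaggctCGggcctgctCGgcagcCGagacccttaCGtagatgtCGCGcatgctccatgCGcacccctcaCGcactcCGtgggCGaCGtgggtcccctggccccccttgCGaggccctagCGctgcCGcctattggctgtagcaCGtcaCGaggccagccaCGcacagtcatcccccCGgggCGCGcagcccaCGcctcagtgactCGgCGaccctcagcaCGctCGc
Sycp3: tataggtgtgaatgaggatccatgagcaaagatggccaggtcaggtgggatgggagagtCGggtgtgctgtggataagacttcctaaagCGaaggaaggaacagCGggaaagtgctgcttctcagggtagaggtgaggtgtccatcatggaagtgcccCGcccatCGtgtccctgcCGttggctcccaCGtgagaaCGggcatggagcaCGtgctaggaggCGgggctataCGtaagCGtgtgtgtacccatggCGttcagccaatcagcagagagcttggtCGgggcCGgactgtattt
Taf7l: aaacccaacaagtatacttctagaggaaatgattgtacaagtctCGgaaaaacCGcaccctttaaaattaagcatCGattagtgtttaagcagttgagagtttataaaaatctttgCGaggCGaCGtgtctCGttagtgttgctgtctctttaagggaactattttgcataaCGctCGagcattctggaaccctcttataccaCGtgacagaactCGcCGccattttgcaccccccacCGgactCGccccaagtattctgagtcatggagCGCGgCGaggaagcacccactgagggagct
Syce1: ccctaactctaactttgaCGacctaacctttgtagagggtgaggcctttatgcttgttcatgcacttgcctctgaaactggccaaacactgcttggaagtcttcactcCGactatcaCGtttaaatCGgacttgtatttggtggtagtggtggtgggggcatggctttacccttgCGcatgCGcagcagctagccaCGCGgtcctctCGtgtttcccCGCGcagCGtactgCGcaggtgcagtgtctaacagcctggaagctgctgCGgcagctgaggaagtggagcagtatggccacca

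All 10 genes had a promoter in the RefSeq set, and every one held more CG dinucleotides than the median promoter. They had 14 to 38 CG dinucleotides (median 19.5), whereas the median over 27025 mouse promoters was 7. The share of all promoters with fewer CG dinucleotides ranged from 63.1% for *Syce1* to 95.2% for *Ddx4*. For *Sycp3*, *Asz1* and *Taf7l* it did not pass 68.1%. The ratio of observed to expected CG ranged from 0.625 to 1.03, against a median of 0.389 over all promoters. For *Asz1*, *Mael*, *Mov10l1*, *Sycp1* and *Tex101* the counts were 17, 24, 20, 21 and 19. The start used for *Tex101* lies 4625 bases inside the gene as the expression table defines it, and the other 9 starts lie within 165 bases of the 5′ end of the gene. CACGTG, the E-box bound by factors such as Max with Mga, reads the same on both strands and holds a CG. It was present in 6 of the 10 windows (*Ddx4*, *Mael*, *Sycp1*, *Sycp3*, *Taf7l*, *Mov10l1*) and in 7.24% of all promoters. In *Sycp3* it occurred at 64 and again at 43 bases before the start, in *Taf7l* at 49 and in *Ddx4* at 29 bases before it. GGCGGGAA, an E2f site that also holds a CG, was sought on both strands and found in *Ddx4* only, 137 bases before the start, and in 2.24% of all promoters. These matches describe the letters of the windows and are not evidence of binding.

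**Figure D1:**
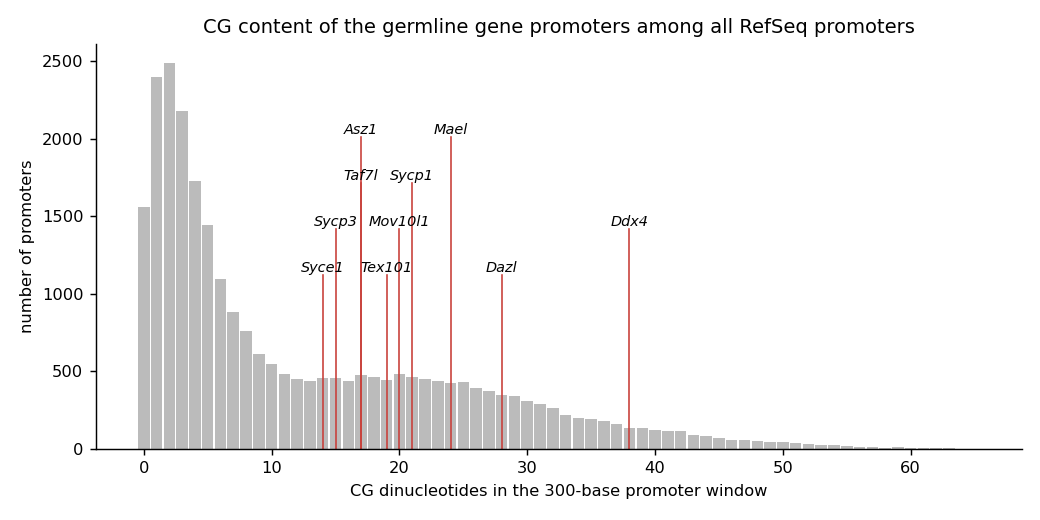
Number of CG dinucleotides in the promoter window (horizontal axis, per 300 bases) against the number of promoters (vertical axis, grey bars, 27025 RefSeq promoters). Red lines mark the 10 germline genes, which lie between 14 and 38, all above the median of 7.

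Depth set what could be seen in each embryo. Total reads ranged from 247667 to 3163026, with medians of 1770010 in WT, 528166 in HET1, 1108889 in HET2 and 803369 in HOM embryos. Values are given as RPM, which scales reads to the total of the embryo, and differences are on the log2(RPM + 1) scale. A single read was worth 0.316 RPM in the deepest and 4.04 RPM in the shallowest embryo. *Dppa2* checked the labels: it stood at 204 to 678 RPM in WT, 40.2 to 345 RPM in HET1 and 27.2 to 101 RPM in the 4 HET2 embryos of mating 1, and at 0 to 4.15 RPM in HOM embryos, where low transcript had itself been the basis of the label. The library labelled HET2 of mating 2 (HET2 embryo 5) stood at 472 RPM, above the WT mean of 377 RPM. Its *Dppa4*, at 54.5 RPM, was below every WT embryo (80.2 to 356 RPM) and within the range of HET1 embryos (10.6 to 164 RPM). Both genes were well above the HOM embryos (*Dppa4* 0 to 4.05 RPM), and only *Dppa2* was within the range of WT embryos. Genes of the two-cell stage were present throughout, with 255 to 1727 RPM summed over 10 markers. Of 7 sperm genes, 5 had no read in any embryo and the sum did not pass 0.706 RPM. Of 12 cumulus and granulosa markers, *Gja1*, *Bmpr1b* and *Serpine2* carried most of a sum of 37.6 to 216 RPM, whereas *Fshr* had no read, and *Amh*, *Foxl2*, *Inha*, *Inhba*, *Ptx3* and *Has2* had reads in 1 to 3 embryos each. *Cyp19a1* had reads in 16 embryos (mean 2.89 RPM in WT, 1.57 in HET1, 0.281 in HET2 and 0.975 in HOM) and *Tnfaip6* in 10.

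Most of the germline genes were detected in two-cell embryos of every genotype. *Dazl*, *Mael*, *Sycp1* and *Sycp3* had reads in 44 of 44 embryos, *Ddx4* in 41, *Mov10l1* in 40 and *Asz1* in 36. *Tex101* was seen in 23 embryos, *Syce1* in 9 and *Taf7l* in 7. Per kilobase of exon, the mean level over all embryos was highest for *Sycp3* (65.9 ± 56.1 RPM per kb, SD, n = 44), *Dazl* (48.0 ± 43.1) and *Sycp1* (40.0 ± 22.1). *Mael* (18.5 ± 12.6) and *Ddx4* (13.1 ± 8.83) followed, then *Tex101* (5.65 ± 9.75), *Mov10l1* (4.59 ± 3.11) and *Asz1* (4.15 ± 4.60), with *Syce1* (0.502 ± 1.58) and *Taf7l* (0.141 ± 0.472) at the bottom. No gene differed from its neighbour in this order by more than the larger of their SDs. The order also changed between groups: *Dazl* was above *Sycp3* in HET1 embryos (70.3 and 61.9 RPM per kb), *Sycp1* above *Dazl* in WT and HOM embryos, and *Tex101* below *Mov10l1* and *Asz1* in WT embryos (2.64, 4.76 and 3.50). The level of *Sycp3* is uncertain. It lies within *Chpt1*, a phospholipid synthesis gene on the other strand, 660 of its 1264 exonic bases are also exonic in *Chpt1*, and reads were counted without regard to strand. *Chpt1* had reads in 44 of 44 embryos, at 60.4 ± 23.5 RPM in WT and 68.7 ± 26.2 RPM in HOM embryos (SD, n = 14 and 10).

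**Figure D2:**
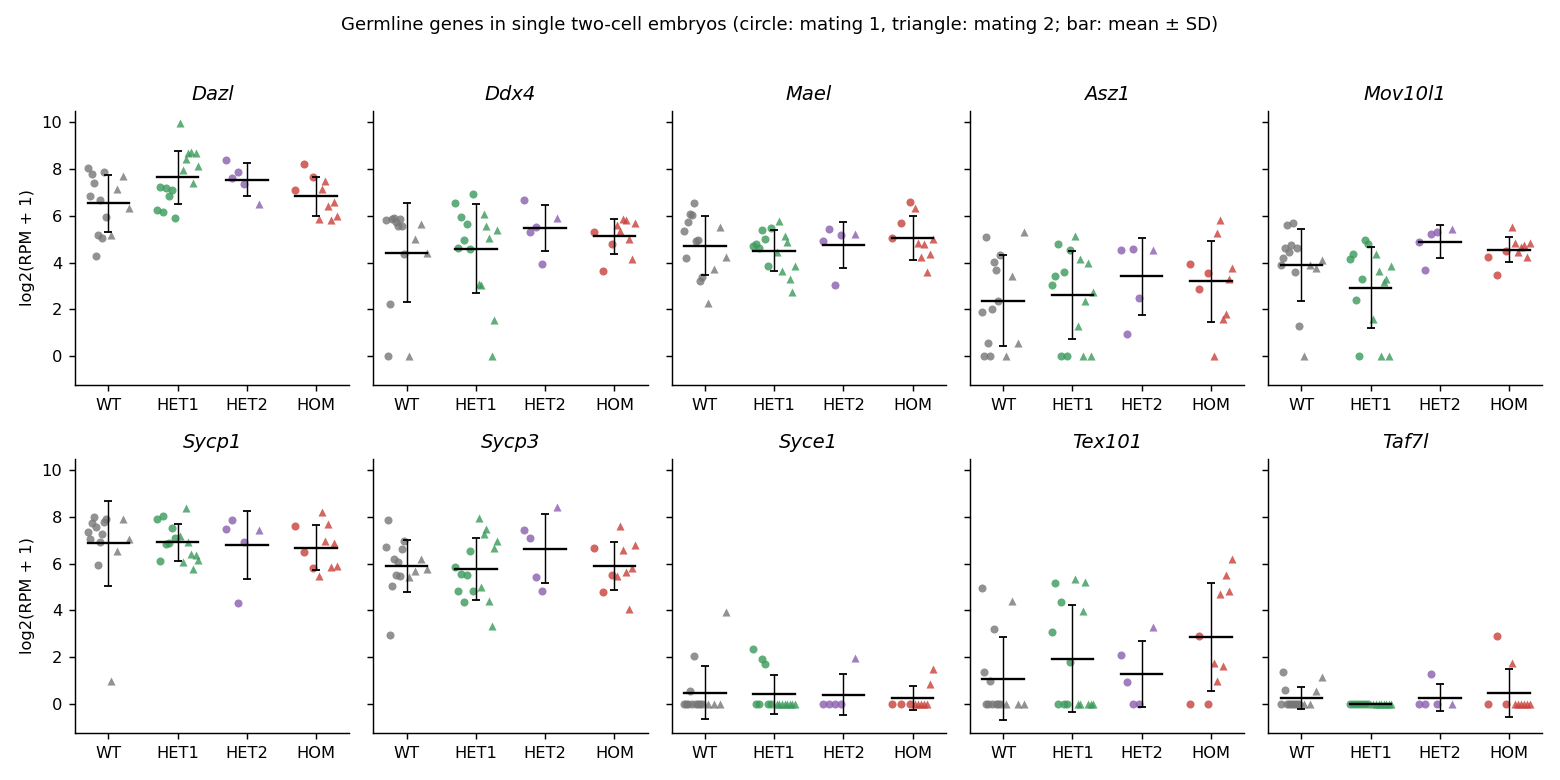
Level of each germline gene, as log2(RPM + 1), in each of 44 embryos (points) by group (horizontal axis). Circles are embryos of mating 1 and triangles of mating 2, and bars give the mean ± SD. *Dazl* was detected in every embryo, *Taf7l* in 7 of 44.

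The design asks whether these genes changed when embryos lacked the maternal copy of Dppa2/4 or both copies. No group lacked the paternal copy alone. None of the 8 germline genes with enough reads to test passed the threshold in any comparison between groups. The threshold was an adjusted p of 0.05 in limma with Benjamini-Hochberg adjustment over the 14220 genes with a read in at least 11 embryos. *Taf7l* and *Syce1* had too few reads for the test and are described by their reads below.

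In HOM against WT embryos, 0 of 8 germline genes were called, where 0.0492% of all genes tested were called. The 8 differences ranged from -0.17 to 1.79 on the log2 scale with a median of 0.49, and the median over all genes was 0.24. The highest was *Tex101*, at an unadjusted p of 0.0271 (adjusted p = 0.282), which 14.5% of all genes also passed at 0.05. In HET1 against WT embryos, 0 of 8 were called against 5.87% of all genes, with differences from -0.96 to 1.11 (median 0.11, all genes 0.08). In HET2 against WT embryos, 0 of 8 were called against 0.00703% of all genes, with a median of 0.88 (all genes 0.03). Without HET2 embryo 5, 0.225% of all genes and 0 of the 8 were called. In HOM against HET1 embryos, both from Dppa2/4m- females, 0 of 8 were called against 0.0492% of all genes, with a median of 0.53 (all genes 0.15). These comparisons share WT or HET1 embryos and are not independent. Between HOM embryos and their HET2 littermates, with litter in the model, 0 of 8 were called against 0.0141% of all genes, and the median was -0.26 (all genes 0.27). The 2 genes behind this share were *Dppa2* and *Dppa4*, whose transcripts had set the labels. With 5 HET2 embryos the intervals are wide.

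**Figure D3:**
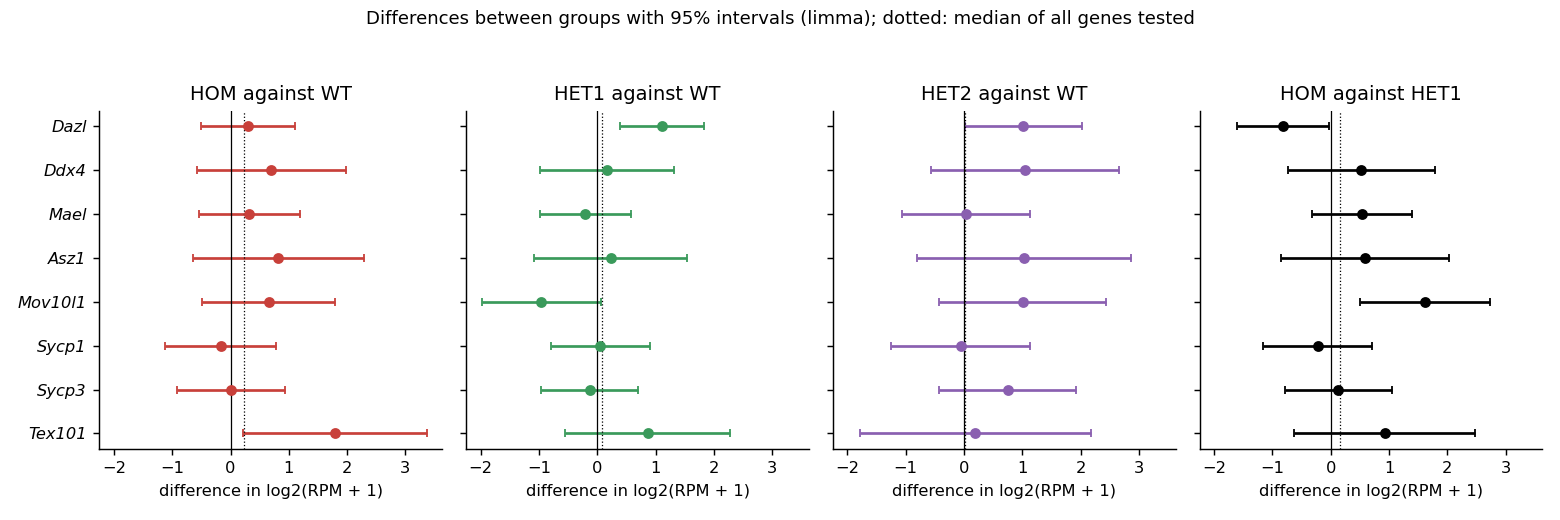
Difference in log2(RPM + 1) between groups (horizontal axis) for the 8 germline genes tested, with 95% intervals from limma. The dotted line is the median of all 14220 genes tested. Against WT embryos, the intervals of *Dazl* in HET1 (0.39 to 1.83) and HET2 (0.0090 to 2.02) and of *Tex101* in HOM embryos (0.21 to 3.37) lie above 0. In HOM against HET1 embryos that of *Mov10l1* (0.50 to 2.74) lies above 0 and that of *Dazl* (-1.60 to -0.02) below. None of these passed the adjusted threshold.

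*Dazl* encodes an RNA-binding protein that controls translation in germ cells, and in the oocyte it promotes translation of stored mRNAs. It ranged from 18.7 to 263 RPM in WT embryos (median 108) and from 58.9 to 995 RPM in HET1 embryos (median 170). The 5 HET2 embryos had 333, 194, 233, 166 and 90.4 RPM, and the HOM embryos 56.0 to 294 RPM (median 117). All groups overlapped. The mean was 122 ± 84.0 RPM in WT and 269 ± 238.5 RPM in HET1 embryos (SD, n = 14 and 15), a difference of 1.11 on the log2 scale (SE 0.36), with an adjusted p of 0.0506. HOM embryos had a mean of 131 ± 76.7 RPM and differed from WT by 0.30 (SE 0.40, adjusted p = 0.764). HET2 embryos differed from WT by 1.02 (95% interval 0.0090 to 2.02, adjusted p = 0.547), and HOM from HET1 embryos by -0.81 (-1.60 to -0.02, adjusted p = 0.356).

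The higher *Dazl* in HET1 embryos was found in the litter of mating 2. Its 8 embryos had 995, 249, 342, 413, 420, 170, 410 and 278 RPM, all above the 7 embryos of mating 1 (58.9 to 150 RPM). The difference between the HET1 litters was 1.82 (SE 0.42, adjusted p = 0.00109, limma), the only call among the germline genes in the 8 comparisons made, in a contrast that called 22.3% of all genes. Without the litter of mating 2, *Dazl* differed between HET1 and WT embryos by 0.14 (adjusted p = 0.894), and without that of mating 1 by 1.96 (adjusted p = 0.00022, in a fit that called 19.8% of all genes). With litter as a random effect the difference was 1.07 (adjusted p = 0.698). Because the spread is shared across groups, leaving out the HET2 embryo of mating 2 was enough to bring the adjusted p to 0.0471.

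In the cross with Dppa2/4+/- males the litter of mating 1 was the higher one. There *Dazl* stood at 138, 201 and 294 RPM in the 3 HOM embryos, and at 56.0 to 178 RPM (median 85.4) in the 7 HOM embryos of mating 2. These HOM litters overlapped, and the difference was -1.18 (SE 0.56, adjusted p = 0.257), where 1.48% of all genes were called. In the WT litters the medians were 108 and 111 RPM, with a difference of 0.09 (adjusted p = 0.957). This contrast called 1.32% of all genes, and 0.0914% without WT embryo 11. Between littermates, the difference of HOM from HET2 embryos was -0.11 (95% interval -0.83 to 0.61). *Dppa2* also differed between the HET1 litters, with medians of 145 RPM in mating 1 and 48.6 RPM in mating 2. The medians of *Dppa4* were 73.6 and 26.3 RPM in the same order. In HOM embryos *Dppa2* did not pass 4.15 RPM in either litter. The part of *Dppa2* and *Dppa4* in the values of *Dazl* was not tested.

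Some oocyte markers, of which *Omt2b* was the most abundant, were high in the litters with high *Dazl*, and others were not. The sum of 12 markers, most of it *Omt2b*, had a median of 9738 RPM (7872 to 14104) in HET1 embryos of mating 2 and 3690 RPM (1633 to 5997) in those of mating 1. It was 7988 RPM (7583 to 9077) in the cross with Dppa2/4+/- males in mating 1 and 2622 RPM (1473 to 4684) in mating 2. In the WT litters it was 2926 RPM (1692 to 4548) and 5441 RPM (2720 to 9521), while *Dazl* was about the same in both. The litters with the highest medians of *Dazl*, 376 and 201 RPM, had the highest marker sums, and the other 4 litters had medians of 87.9 to 115 RPM. Of the 12 oocyte markers 10 were tested. Between the HET1 litters, where 22.3% of all genes were called, *Bmp15* (0.98), *Omt2b* (1.64) and *Oosp1* (2.69) were higher in mating 2. *Gdf9* (1.03, adjusted p = 0.0897) and *Oog1* (0.26) had differences above 0 that did not pass, and *Zp1* (-0.03), *Zp2* (-0.37), *Zp3* (-0.97), *Nlrp5* (-0.0035) and *Nobox* (-0.10) had differences at or below 0. The median of the 10 was 0.13 (all genes -0.30), against 1.82 for *Dazl*. Between the HOM litters, mating 2 against mating 1, where 1.48% of all genes were called, 9 of the 10 markers were below 0, all but *Zp3*. *Bmp15*, *Omt2b*, *Oosp1* and *Oog1* were lower past the threshold, and the median was -1.23 (all genes -0.04), against -1.18 for *Dazl*. In HET1 against WT embryos, where 5.87% of all genes were called, *Zp3*, *Omt2b* and *Oosp1* were higher and 0 lower, with adjusted p from 0.0455 to 0.0482. Their differences were 1.25, 0.94 and 1.25. With litter as a random effect these were 1.39, 0.83 and 1.08, and the adjusted p were 0.617, 0.685 and 0.678. *Figla* and *Sohlh1* were near 0, with reads in 3 and 2 embryos. Of 9 two-cell markers tested, 5 were higher in mating 2 between the HET1 litters and 0 lower, with a median of 1.99 (all genes -0.30). Between the HOM litters, mating 2 against mating 1, 0 were called, with a median of -1.48 (all genes -0.04). The sum of 10 such markers had medians of 591 RPM in mating 1 and 1073 RPM in mating 2 in HET1 embryos. In HOM embryos these medians were 706 and 531 RPM. The ranges of the sums overlapped in both. The part of these differences in the values of *Dazl* was not tested.

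**Figure D4:**
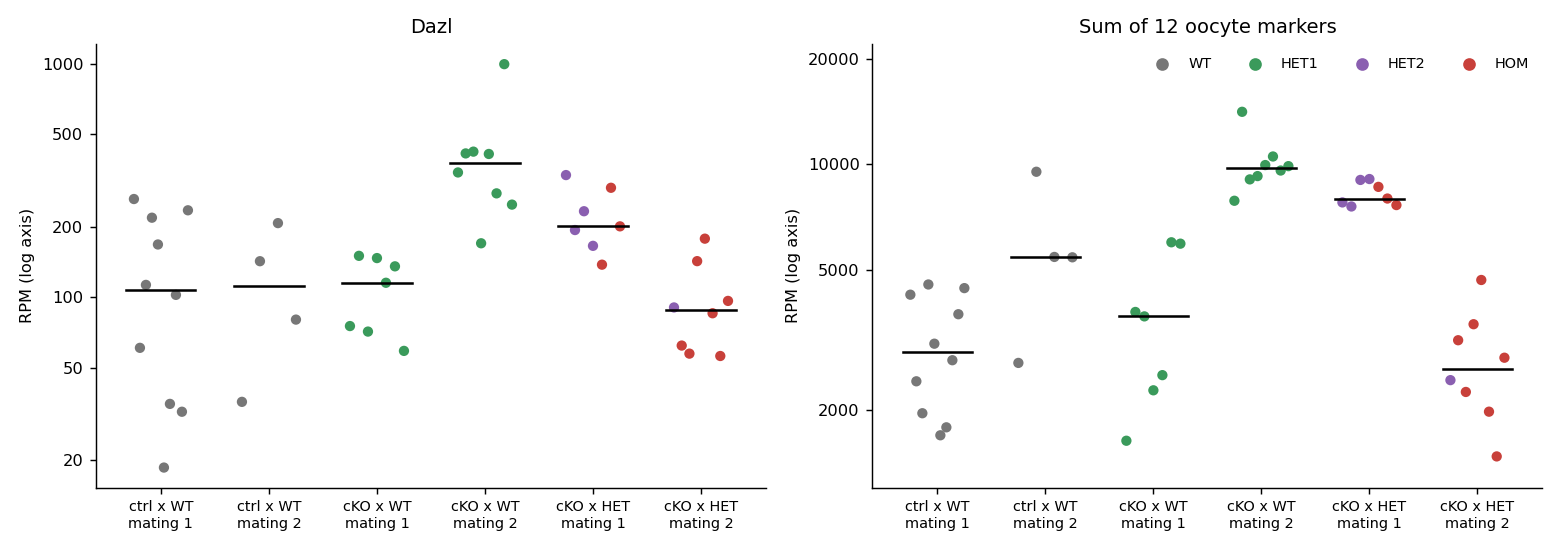
*Dazl* (left) and the sum of 12 oocyte markers (right) in RPM on log axes, in the 6 litters (horizontal axis), with a point for each embryo coloured by group and a line at the median. HET1 embryos of mating 2 and the litter of mating 1 sired by Dppa2/4+/- males have the highest medians in both, although some WT embryos are as high as embryos of these litters.

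The germ granule and piRNA genes *Ddx4*, *Mael*, *Asz1* and *Mov10l1* act in the pathway that silences transposons in the male germ line. *Ddx4*, the vasa RNA helicase, ranged from 0 to 58.5 RPM in WT embryos (median 46.3), from 0 to 120 RPM in HET1 embryos (median 32.3) and from 11.5 to 57.9 RPM in HOM embryos (median 38.8). The HET2 embryos had 102, 38.8, 44.4, 14.5 and 59.7 RPM. The groups overlapped, and HOM differed from WT embryos by 0.70 (SE 0.64, adjusted p = 0.634). Between the HET1 litters *Ddx4* was opposite to *Dazl*, at 22.6 to 120 RPM (median 48.8) in mating 1 and 0 to 66.1 RPM (median 19.9) in mating 2. This difference of -1.88 (SE 0.75) had an adjusted p of 0.0635, which became 0.0395 when WT embryo 11 was left out.

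*Mael*, a component of the germ granule, had means of 34.8 ± 26.3 RPM in WT, 25.6 ± 13.9 in HET1, 30.1 ± 13.7 in HET2 and 39.1 ± 27.8 in HOM embryos (SD, n = 14, 15, 5 and 10). Its difference between HOM and WT embryos was 0.32 (SE 0.43, adjusted p = 0.764). *Asz1*, an ankyrin repeat protein of the same granules, had means of 9.91 ± 12.7, 10.3 ± 10.7, 14.5 ± 10.8 and 15.1 ± 17.9 RPM in the same order, with a difference of 0.82 (SE 0.73, adjusted p = 0.623). For both genes the groups overlapped. They were also spread within groups, *Asz1* from 0 to 38.9 RPM among WT embryos alone.

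*Mov10l1*, the helicase that starts piRNA processing, had the widest difference between groups among these 4 genes. It ranged from 0 to 50.3 RPM in WT (median 16.9), from 0 to 30.1 RPM in HET1 (median 8.96) and from 10.2 to 45.4 RPM in HOM embryos (median 23.0). The HET2 embryos had 28.6, 11.7, 35.8, 39.0 and 41.7 RPM. It had no read in 3 of 15 HET1 embryos and in 1 WT embryo, and reads in all HET2 and HOM embryos. HOM was above HET1 by 1.62 (SE 0.56), with an adjusted p of 0.256, and the groups overlapped. Without the HET1 litter of mating 1 the difference was 2.05 (adjusted p = 0.0142, in a fit that called 18.8% of all genes), and without that of mating 2 it was 1.12 (adjusted p = 1.00). HOM and WT embryos differed by 0.65 (SE 0.57, adjusted p = 0.613). The HET1 libraries were the shallowest, and without all embryos under 500000 reads HOM was above HET1 by 1.15 (adjusted p = 0.651).

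*Sycp1*, *Sycp3* and *Syce1* encode parts of the synaptonemal complex, which joins homologous chromosomes in meiosis. *Sycp1* was abundant, at 0.938 to 258 RPM in WT (median 157), 53.7 to 332 RPM in HET1 (median 115) and 43.0 to 298 RPM in HOM embryos (median 102). The HET2 embryos had 177, 234, 18.6, 121 and 172 RPM. The groups overlapped and HOM differed from WT embryos by -0.17 (SE 0.47, adjusted p = 0.90), or by -0.63 (SE 0.34, adjusted p = 0.414) without WT embryo 11. The lowest *Sycp1* value, a single read in 1065975, belonged to WT embryo 11. This embryo also had no read of *Ddx4*, *Asz1*, *Mov10l1* and *Tex101* and the fewest genes with a read, 9169. It set the difference of *Sycp1* between the WT litters, which was -1.74 (adjusted p = 0.154) with it and -0.19 (adjusted p = 0.971) without it.

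*Sycp3* had 6.73 to 235 RPM in WT (median 60.0), 8.96 to 245 RPM in HET1 (median 45.9) and 15.8 to 194 RPM in HOM embryos (median 51.9). The HET2 embryos had 175, 136, 41.5, 27.2 and 338 RPM, the last being the highest of all 44. HOM and WT embryos had medians close together and differed by 0.00 (95% interval -0.93 to 0.93). HOM embryos were below their HET2 littermates by 1.17 on average (95% interval -2.31 to -0.03, adjusted p = 0.860). That interval rested on 1 embryo, and without the HET2 embryo at 338 RPM the difference was -0.53 (adjusted p = 1.00).

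*Syce1* was at the limit of detection. It had 30 reads in all, in 3 of 14 WT, 3 of 15 HET1, 1 of 5 HET2 and 2 of 10 HOM embryos. A single WT embryo of mating 2 held 12 of these reads (14.2 RPM). The other 8 positive embryos had 1 to 5 reads each. No direction can be read at this depth.

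*Tex101* encodes a surface glycoprotein of germ cells that is needed for sperm function. It had reads in 5 of 14 WT, 7 of 15 HET1, 3 of 5 HET2 and 8 of 10 HOM embryos. WT embryos ranged from 0 to 30.4 RPM and HET1 embryos from 0 to 40.1 RPM, both with a median of 0. The HET2 embryos had 3.28, 0.902, 0, 0 and 8.69 RPM. The HOM embryos of mating 1 had 0, 6.37 and 0 RPM, and those of mating 2 had 2.39, 0.984, 25.2, 2.03, 45.1, 27.5 and 73.0 RPM. The groups overlapped. The mean was 4.37 ± 9.33 RPM in WT and 18.3 ± 24.7 RPM in HOM embryos (SD), a difference of 1.79 (SE 0.79, adjusted p = 0.282).

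The higher *Tex101* in HOM embryos was found in the litter of mating 2, in which all 7 HOM embryos and the HET2 embryo had reads. Leaving out this litter gave a difference from WT of -0.10 (adjusted p = 0.985), and leaving out mating 1 gave 2.60 (adjusted p = 0.141). Between the HOM litters the difference was 2.70 (SE 1.27, adjusted p = 0.254). The sum of oocyte markers was lower in this litter. In HET1 embryos *Tex101* had a median of 2.45 RPM in mating 1 and 0 in mating 2, and means of 9.10 and 11.4 RPM.

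*Taf7l*, a germ cell variant of a general transcription factor subunit encoded on the X chromosome, was the least abundant. It had 11 reads in all, in 4 of 14 WT, 1 of 5 HET2 and 2 of 10 HOM embryos, and 5 of these reads fell in a single HOM embryo (6.37 RPM). In the 15 HET1 embryos it had 0 reads in 11457846, which allows a level of up to 0.262 RPM over the group (3 reads, counting error only). In WT embryos it had 4 reads, or 0.161 RPM over the group (95% exact Poisson interval 0.0439 to 0.412), and a difference was not detectable at this depth. The HOM embryo with 5 reads of *Taf7l* was also the 1 HOM embryo of mating 1 with *Tex101*.

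Other genes of the same pathways were examined alongside. Of 21 further piRNA and germ granule genes 19 were tested, with 0 higher and 0 lower in the 5 comparisons between groups. Their median difference was 0.25 in HOM and -0.18 in HET1 against WT embryos. *Tex15*, a piRNA pathway protein, was the most abundant at 249 RPM in WT and 174 RPM in HOM embryos on average (difference -0.50, adjusted p = 0.422). Of 23 meiotic chromosome genes 18 were tested, with 0 called in the 5 comparisons and medians of 0.00 in HOM and -0.08 in HET1 against WT embryos. *Hormad1*, a meiotic axis protein, had a mean of 279 RPM in WT and 168 RPM in HOM embryos (difference -0.24, adjusted p = 0.88). Between the WT litters, mating 2 against mating 1, it differed by -2.67 (adjusted p = 0.0332), where 1.32% of all genes were called.

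Of 19 other germline genes silenced by methylation 18 were in the table and 13 were tested, and *Tuba3b*, a testis tubulin, was the only one called between groups. It was higher in HOM embryos (80.9 RPM, WT 17.9 RPM, difference 2.68, SE 0.57, adjusted p = 0.0373) and in HET1 embryos (49.0 RPM, difference 1.85, SE 0.51, adjusted p = 0.0195). These calls, 1 of 13 in each comparison, stand beside 0.0492% and 5.87% of all genes. With litter as a random effect the adjusted p were 0.956 and 0.67. Reads that match the near-identical copy *Tuba3a* equally well would fall below the MAPQ minimum of 20, so the level of *Tuba3b* is uncertain. *Tuba3a* differed from WT by 1.12 in HOM (adjusted p = 0.365) and by 1.34 in HET1 embryos (adjusted p = 0.116). *Brdt*, a testis bromodomain protein, was abundant at 235 RPM in WT and 301 RPM in HOM embryos (adjusted p = 0.607).

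Of 20 genes of the silencing machinery 19 were tested, and 0 were called in HOM against WT embryos. In HET1 against WT embryos, where 5.87% of all genes were called, *Dnmt3l*, the cofactor of the de novo methyltransferases, was higher (37.1 against 11.6 RPM, difference 1.61, SE 0.41, adjusted p = 0.0118). The Polycomb subunits *Pcgf6* (159 against 300 RPM, difference -0.93, adjusted p = 0.00938) and *Mga* (185 against 330 RPM, difference -0.84, adjusted p = 0.0478) were lower. With litter as a random effect the adjusted p were 0.595, 0.604 and 0.774 for *Dnmt3l*, *Pcgf6* and *Mga*. The WT litters differed by as much in *Pcgf6* and *Mga*, mating 2 against mating 1, with -1.20 (adjusted p = 0.0289) and -1.14 (adjusted p = 0.0779). This contrast called 1.32% of all genes, and 0.0914% without WT embryo 11. On the log2(RPM + 1) scale the WT litter of mating 2 had lower means of both (7.25 and 7.39) than the HET1 litter of mating 1 (7.63 and 8.01). In *Dnmt3l* the WT litters differed by 0.70 (adjusted p = 0.677). Both HET1 litters (means 4.67 and 5.09) were above both WT litters (3.08 and 3.78) in this gene. Between the HET1 litters, mating 2 against mating 1, 1 gene of this list was higher and 7 were lower, including *Pcgf6* and *Mga*, in the contrast that called 22.3% of all genes. The same contrast held 1 higher and 5 lower piRNA genes, 2 higher and 1 lower meiotic genes, and 2 higher and 0 lower of the other germline genes, *Tex14* and *Brdt* (adjusted p = 7.94e-06 for *Brdt*).

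Across embryos the undetected values were spread thinly. Of the 8 genes tested, 18 embryos had reads of all, 19 lacked 1, 5 lacked 2, 1 lacked 3 and 1, WT embryo 11, lacked 4. Summed over all 10 germline genes, the median was 457 RPM in WT, 495 RPM in HET1, 658 RPM in HET2 and 453 RPM in HOM embryos, with ranges of 82.5 to 672, 266 to 1490, 405 to 870 and 245 to 766 RPM that overlapped.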

How the data were processed

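Each embryo was a Smart-seq2 library of poly(A) mRNA. The authors used Trim Galore 0.6.5 and cutadapt 2.3 for trimming, HISAT2 2.1.0 for mapping to GRCm38 and a MAPQ minimum of 20. They counted reads over 35269 mRNA probes in SeqMonk, ignoring strand, and deposited log2 RPM. Where a gene had no read, the deposited log2 value is that of 0.9 read (-1.81 to 1.86 by embryo). Whole reads were therefore recovered (99.9997% of values lay within 0.05 of a whole read) and such genes set to 0 RPM. Depths and limits cover counting error only, since reads lack molecular identifiers. Embryos were the replicates, although littermates share parents.

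Genes with a read in at least 11 of 44 embryos were tested on log2(RPM + 1) with limma 3.58.1 (R 4.3.3, moderated by a trend), two-sided, at a Benjamini-Hochberg adjusted p of 0.05. A model of 4 groups gave the group comparisons, a model of 15 littermates with litter as a term compared HOM with HET2, and a model of group and litter compared litters. The study's text names no test of this kind. The fits were also run on simulated counts drawn without differences between litters, so that run does not show how litters affect the p-values. The pseudocount understates changes of low genes. Promoters came from RefSeq (GRCm38.p6), spans and exons from GENCODE for GRCm38.

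The 10 genes and all lists were chosen with earlier results of these data known. Of each other list, genes past the threshold between groups and the most abundant could be named. *Fshr*, *Amh*, *Foxl2*, *Inha*, *Inhba*, *Ptx3*, *Has2*, *Cyp19a1*, *Tnfaip6*, *Figla*, *Sohlh1*, *Zp1*, *Zp2*, *Gdf9*, *Oog1*, *Nlrp5*, *Nobox*, *Tex14*, *Chpt1* and *Tuba3a* were named after their values were seen. Alternatives covered scale, pseudocount, filter, scaling, voom, weights, litter, mating number and embryos left out, and leaving out WT embryo 11 was added after the data were seen. Figures used matplotlib 3.10.9.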

Additional observations from a re-analysis of the deposited data

Results flagged for a closer look

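In the group of 5 HET2 embryos a single embryo was picked out for 4 of the germline genes, by the gap to its nearest neighbour relative to the range of the group. *Mael* was lowest in HET2 embryo 3, at 3.03 on the log2(RPM + 1) scale (5 reads), with the nearest embryo at 4.91. *Sycp1* was lowest in the same embryo, at 4.29 (13 reads), with the nearest at 6.93. *Taf7l* had its only HET2 read in that embryo too (1.28), and *Syce1* had reads only in HET2 embryo 5 (1.96, 5 reads), but with the remaining HET2 embryos at 0 any read meets this measure, so neither says that the embryo stands apart. In all, 20 sets of embryos were examined, the 10 genes in HET2 and HOM embryos, and chance gives about 1 such case in 20.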

How the results depend on the processing

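The comparisons were recomputed under 25 alternatives, of which 21 to 25 applied to a given comparison. Single germline genes were followed for 24 differences. These were all those in HOM against WT embryos, and any with an unadjusted limma p below 0.05 or a size of at least 1. Only *Dazl* between the HET1 litters had passed the threshold in the main model. Of 565 recomputed values 541 kept their direction and their side of the threshold. In HET1 against WT embryos 0 germline genes were called in the main model, which called 5.87% of all genes. In 5 alternatives 1, *Dazl*, was called. These were the deposited log2 values (adjusted p = 0.0264), reads in at least 22 embryos (0.0435) and voom (0.0495). The others left out the HET1 litter of mating 1 (0.00022, with 19.8% of all genes called) or HET2 embryo 5 (0.0471, with 6.21% called). Without each HET2 embryo or WT embryo 11, the only embryos left out singly, the count was 0 to 1. In HOM against HET1 embryos 2 were called, *Dazl* (-1.66) and *Mov10l1*, without the HET1 litter of mating 1, where 18.8% of all genes were called. Between the HET1 litters 2 were called in place of 1, adding *Ddx4*, without WT embryo 11 or either WT litter. These fits called 20.9% to 24.1% of all genes. The count was 1 to 2 without those single embryos. No HET1 or HOM embryo was left out singly. Between the HET1 litters *Dazl* passed in all 21 of these fits (adjusted p = 0.00014 to 0.0248). No call of a germline gene was made in HOM or HET2 against WT embryos under any alternative.

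Among the 24 differences followed, the signs that turned belonged to those that did not pass the threshold. *Sycp3* in HOM against WT embryos was 0.0028 in the main model and -0.0063 with a pseudocount of 4 RPM, -0.16 with median-of-ratios scaling, -0.067 with litter as a random effect, -0.23 without the HOM litter of mating 2, and -0.048 and -0.032 without the WT litter of mating 2 and without WT embryo 11. *Sycp1* was 1.07 without the WT litter of mating 1. *Tex101* was -0.10 without the HOM litter of mating 2. *Dazl* was -0.056 in HOM and -0.023 in HET2 against WT embryos without the litter of mating 1, and in HOM against HET1 embryos 0.012 without the HOM litter and 0.16 without the HET1 litter of mating 2. The cause was not tested.

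Nothing in the labels ties a mating number of one cross to that of another, so the numbers were not taken as pairs. The differences between litters correlated across 14220 genes by 0.34 (HET1 and WT), -0.32 (HOM and WT) and -0.65 (HOM and HET1). With mating number as a replicate block *Dazl* in HET1 against WT embryos was 1.02 (adjusted p = 0.0897), *Sycp1* and *Sycp3* in HOM against WT embryos were 0.10 and -0.21, and 0 germline genes were called between groups.

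Over all genes the count called in HOM against WT embryos ranged from 2 to 132, and in HET1 against WT embryos from 0, with litter as a random effect, to 2821, without the HET1 litter of mating 1. In HET2 against WT embryos it ranged from 0 to 32, the latter without HET2 embryo 5. Between litters it ranged from 13 to 669 in WT, from 1326 to 3429 in HET1 and from 13 to 920 in HOM embryos. Depth limits *Taf7l* and *Syce1*, which could not be tested.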
